A study of Bos grunniens and Bos grunniens x Bos taurus with 6 samples.

Results

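Spermatids, the haploid cells that are remodelled into sperm, were taken from single-cell RNA data of the testis of 1 sexually mature yak of 4 years. They were chosen by their own RNA: a barcode needed at least 3 UMIs of the sperm head and tail genes ACRV1, SPACA1, SPACA4, CATSPER3 and CATSPER4 from at least 2 of these genes. It also needed at most 1 UMI of the late meiotic genes CCNA1 and AURKA, none of the early meiotic genes DMC1 and SPO11, and at most 1 UMI of DCN, COL1A2, PECAM1, CDH5, CD3D and PTPRC, which mark stroma, vessels and white blood cells. This gave 225 spermatids of 4800 kept barcodes in that library and of 31071 in all 6 libraries. Values that chose the cells are given as a description, and so is every other gene of the same cells, since genes that go with the acrosome are drawn in by the choice.

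In spermiogenesis a round cell that has finished meiosis builds the acrosome, an enzyme-filled cap over the nucleus, and grows a flagellum. A skirt of microtubules, the manchette, shapes the head while histones are replaced by transition proteins and then by protamines. Transcription stops as the chromatin condenses, so many messages are made early, stored in RNA granules and translated later.

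The series compares testis of yak (Bos grunniens) across development, with 1 library of a sexually mature yak of 4 years (replicate 5), 1 of a sexually mature cattle-yak (the hybrid of yak and cattle, whose males are known to be sterile), 2 of adolescent yaks of 18 months (replicates 3 and 4) and 2 of prepubertal yaks of 6 months (replicates 1 and 2). No treatment or engineered allele is given for any group, and the labels do not say whether libraries of 1 age came from separate animals. The tissue label is testis, and a cell line tag reads "Germ cell" although stromal, vascular and immune markers were found in other barcodes of the 4-year library. Spermatids were found in 1 library only, so that no replicate, test or p-value exists for any difference below. All intervals are 95% intervals that cover counting error only.

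Spermatids made up 4.69% (4.11–5.32, exact binomial) of the kept barcodes of the 4-year library. The same rule found 0 in the cattle-yak (of 3815 barcodes, with an exact binomial upper limit of 0.0966%). It found 0 in each 18-month library (upper limits of 0.0869% and 0.0876%) and 0 in each 6-month library (upper limits of 0.0462% and 0.0614%). Even without the meiotic and somatic limits, the acrosome criterion was met by 492 barcodes at 4 years, 0 in the cattle-yak, 4 and 1 at 18 months and 0 at 6 months. ACRV1, a protein of the acrosomal vesicle, had 3927 UMIs over the kept barcodes of the 4-year library (273 CPM, counts per 1000000 UMIs) and 0 in each of the other 5 libraries. HMGB4, a high-mobility-group protein of late germ cells that the rule did not use, had 7369 UMIs (512 CPM) at 4 years, 1 UMI in replicate 1 at 6 months and 0 in the other libraries.

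Several genes that were high in spermatids were also seen outside the 4-year library, so they do not mark these cells alone. TMEM190, an acrosomal membrane protein, stood at 485 CPM at 4 years and 1.48 CPM in the cattle-yak. Before maturity it was at 6.57 and 4.57 CPM in the 18-month libraries, and at 36.6 and 20.5 CPM in those of 6 months. DKKL1, a secreted dickkopf-like protein of the acrosome, had 3648 CPM at 4 years and 38.7 CPM in the cattle-yak. Adolescent libraries held 30.9 and 35.3 CPM of it, prepubertal ones 97.2 and 73.8 CPM. CLGN, a chaperone of the endoplasmic reticulum in germ cells, had 2006 CPM at 4 years, 21.4 CPM in the cattle-yak, 162 and 119 CPM in the adolescent libraries and 28.9 and 18.9 CPM in the prepubertal ones. For TMEM190, DKKL1 and CLGN, the 2 libraries of each age were thus close to each other relative to the distance to the 4-year value, which rests on 1 library. The rule gene SPACA1 was also seen in all 6 libraries, with 197 CPM at 4 years, 12.3 and 6.36 CPM at 18 months and 2.84 CPM in the cattle-yak. CRISP2 was seen in all 6 too, with 797 CPM at 4 years and 5.03 and 1.79 CPM at 18 months. CATSPER4, another rule gene, had 8 UMIs (0.556 CPM) at 4 years. That was under its 46 UMIs (3.05 CPM) in replicate 4 at 18 months and its 0.865 CPM in the cattle-yak.

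**Figure D1:**
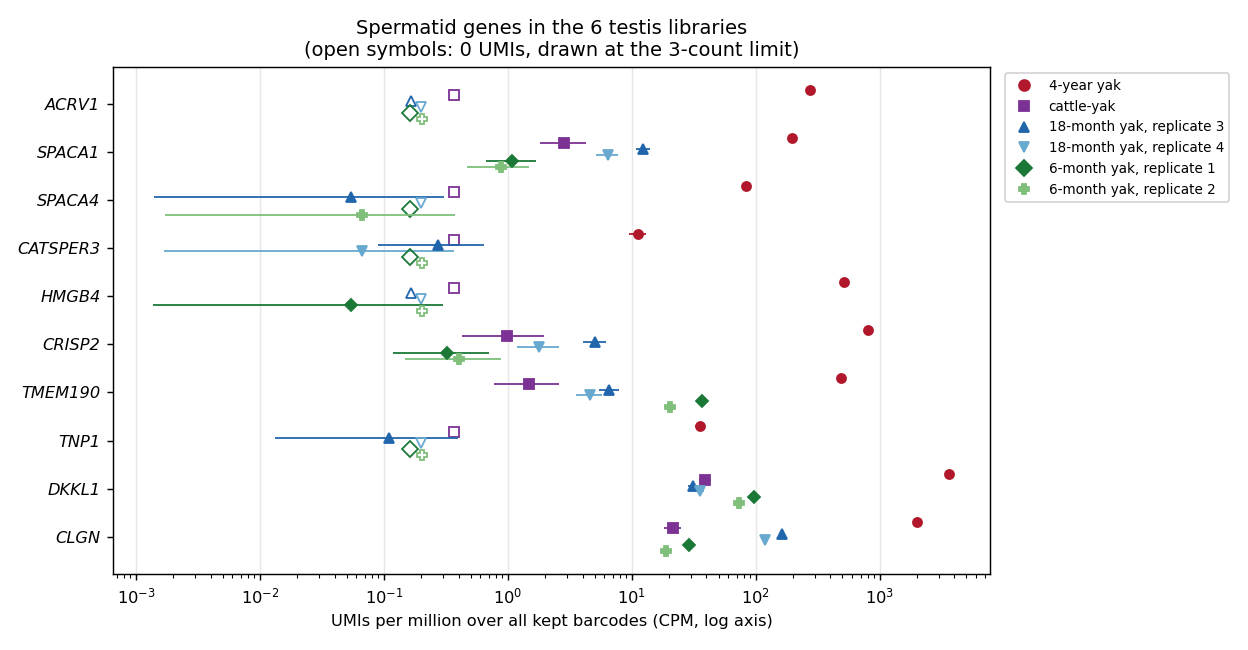
CPM over all kept barcodes (log axis) of 10 genes in the 6 libraries, with the 4-year yak in red circles; lines are 95% Poisson intervals and open symbols are 0 UMIs drawn at the limit of 3 counts. ACRV1 and HMGB4 stand at 273 and 512 CPM at 4 years against at most 1 UMI elsewhere, while SPACA1, CRISP2, TMEM190, DKKL1 and CLGN are seen in all 6 libraries.

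The spermatids held 397623 UMIs, with a median of 1407 per cell (500 to 14845), a median of 866 genes and a median mitochondrial share of 0.75%. The other 4575 kept barcodes had a median of 1488 UMIs, 680 genes and 9.39% mitochondrial UMIs. Late spermatocytes of the same library, taken as barcodes with at least 2 UMIs of CCNA1 and AURKA and the same other limits, were 337 cells with 3533497 UMIs, a median of 4725 UMIs and 1.47% mitochondrial UMIs. Cells thinned to 1000 UMIs had a median of 671 genes in 151 spermatids, 647 in 314 late spermatocytes and 530 in 288 endothelial cells, with 74, 23 and 18 shallower cells left out in that order.

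Spermatids carried 3 to 49 UMIs of the acrosome criterion, with a median of 5. ACRV1 was found in 215 of the 225 cells, SPACA1 in 203 and SPACA4, both acrosomal membrane proteins, in 127. CATSPER3, a pore subunit of the sperm calcium channel, was found in 23 and CATSPER4, another pore subunit, in 1, so that the head genes chose nearly all the cells. The cells just inside the threshold, with 3 UMIs, were 50, and those just outside, with 2 UMIs from 2 genes and all other limits met, were 69. Of the 492 barcodes with the acrosome criterion, 150 were left out for DMC1 or SPO11 alone, 50 for CCNA1 and AURKA alone, 5 for the somatic limit alone and 62 for 2 or 3 limits. The 50 left out for CCNA1 and AURKA are among the 337 late spermatocytes.

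Markers that the rule did not use are given as a description and not as a check of the label. HMGB4 was found in 78.1% (70.7–84.5) of spermatids thinned to 1000 UMIs, against 10.8% (7.62–14.8) of late spermatocytes and 11.1% (7.73–15.3) of endothelial cells, which should lack it. Unthinned, these shares were 80% of spermatids, 31.2% of late spermatocytes and 20.3% of endothelial cells, at median depths of 1407, 4725 and 2643.5 UMIs in that order. The share of late spermatocytes with HMGB4 is thus at the background level. CRISP2, a cysteine-rich protein of the acrosome and tail, was found in 76.2% (68.6–82.7) of thinned spermatids, 54.5% (48.8–60.1) of late spermatocytes and 16.7% (12.6–21.5) of endothelial cells, so it was seen above background in late spermatocytes too. TNP1, the transition protein that replaces histones, was found in 9.93% (5.67–15.9) of thinned spermatids, 0.955% (0.197–2.77) of late spermatocytes and 1.39% (0.380–3.52) of endothelial cells. Unthinned, 33 of 225 spermatids had a TNP1 UMI. Of the 5 markers listed for spermatids, HMGB4 and CRISP2 are outside the rule, and the presence of ACRV1, SPACA1 and SPACA4 is fixed by it. The protamines were not analysed here.

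Markers of other germ cells were found in a part of the spermatids. The spermatocyte list had 141 UMIs in 100 of 225 cells, with the rule genes DMC1 and SPO11 at 0, and its summed level was 355 CPM in spermatids and 1293 CPM in late spermatocytes, which were chosen by its genes CCNA1 and AURKA. The spermatogonium list had 67 UMIs in 59 cells, with DMRT1 at 0, or 169 CPM in spermatids and 418 CPM in late spermatocytes. Endothelial cells, used as the free-RNA background, had 205 CPM of the spermatocyte list and 288 CPM of the spermatogonium list. The spermatogonium list was thus higher in endothelial cells than in spermatids. UCHL1, of that list, had 170 CPM in endothelial cells and 35.2 CPM in spermatids. How much of the list in endothelial cells was free RNA was not tested.

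Of the somatic lists, the stroma list had 4 UMIs in 4 of 225 cells, with DCN, LUM and PDGFRA at 0, and the Leydig list had 1 UMI. The macrophage list had 6 UMIs in 6 cells, with CD68 and CD163 at 0, and the lymphocyte list 18 UMIs in 14 cells, with CD52 at 0. The endothelial list had 45 UMIs in 13 cells, of which 20 lay in 1 cell, with CDH5 at 0. The mural list had 62 UMIs in 33 cells, and the Sertoli list 79 UMIs in 52 cells, with FSHR and GATA4 at 0. Summed levels of the Sertoli list were 199 CPM in spermatids and 756 CPM in the other kept barcodes. Each of the 7 somatic lists was lower in spermatids than in the other kept barcodes, but 6 of them, the Sertoli list aside, were higher in spermatids than in late spermatocytes, the Leydig, stroma and macrophage lists on 1, 4 and 6 UMIs in spermatids. The endothelial list had 113 CPM in spermatids and 50.4 CPM in late spermatocytes, the mural list 156 CPM in spermatids and 76.4 CPM in late spermatocytes, and the lymphocyte list 45.3 CPM in spermatids and 11.6 CPM in late spermatocytes. The part of these markers in the differences between spermatids and late spermatocytes was not tested. Rule genes are among these markers (DCN, COL1A2, PECAM1, CDH5, CD3D and PTPRC), which were limited by construction.

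By UMI level, not divided by transcript length, the symbol-bearing genes at the top of the spermatid sum were DKKL1 with 7268 CPM (7006–7538), the calmodulin gene CALM3 with 5425 CPM and the glutathione transferase GSTM3 with 4909 CPM. DKKL1 had a UMI in all 225 spermatids, CALM3 in 223 and GSTM3 in 217. Late spermatocytes had 6490, 7687 and 8863 CPM of these genes, so that these leading messages of spermatids were as high or higher there, DKKL1 aside, which was 1.12-fold higher in spermatids. The ubiquitin gene UBB had 4006 CPM in spermatids and 5578 CPM in late spermatocytes. TSACC, a cochaperone of a testis-specific kinase, had 3579 CPM in spermatids and 4963 CPM in late spermatocytes. CALR3, a germ cell calreticulin, had 2668 CPM in spermatids and 1235 CPM in late spermatocytes. Of the 15 genes at the top, FAM229A and TMEM190 were the 2 past 4-fold. FAM229A had 3086 CPM (2916–3263) in spermatids and 99.6 CPM in late spermatocytes, while its relative FAM229B had 3340 CPM in spermatids and 2506 CPM in late spermatocytes. TMEM190 had 3041 CPM (2872–3217) in spermatids and 71.9 CPM in late spermatocytes. Other genes among the 15, with ratios under 4-fold, were the ribosomal genes RPLP1, RPL32 and RPS2, the collectin COLEC11 and UQCC2, which acts in the assembly of a respiratory complex. The feature with the most UMIs of all carried no symbol: ENSBGRG00000012699 had 20565 CPM in spermatids, in 219 of 225 cells and with up to 1323 UMIs in 1 cell, and 402 CPM in late spermatocytes, a ratio of 51.1 (48.3–54.1). Features without a symbol, mitochondrial ones aside, took 32.4% of the UMIs of spermatids and 31.5% of those of late spermatocytes.

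Of 5467 genes with at least 50 UMIs in spermatids or in late spermatocytes, 519 (9.49%) were at least 4-fold higher in spermatids, 427 (7.81%) were at least 4-fold lower and 4521 lay between. The median log2 ratio of spermatids over late spermatocytes was -0.58. With median-of-ratios scaling, which moves all log2 ratios by -0.20, 477 genes were higher and 607 lower, so that 44.0% of the calls were higher, against 54.9% with CPM. The filter of 50 UMIs stands for 126 CPM in spermatids and 14.2 CPM in late spermatocytes. A gene that passed it through spermatids alone had therefore to be high there, and a gene low in late spermatocytes and moderate in spermatids was not compared. ACRV1, SPACA1 and SPACA4 among the higher genes and CCNA1 and AURKA among the lower ones were used by the rule, which leaves 516 higher and 425 lower genes. For 377 of the 516 (73.1%), the late spermatocyte level was at or under that of endothelial cells of the library. Those ratios to late spermatocytes are thus limited by what background cells also held. For 85 of the 516, the endothelial level was at least 25% of the spermatid level, and the median over the 516 was 10.2%.

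**Figure D2:**
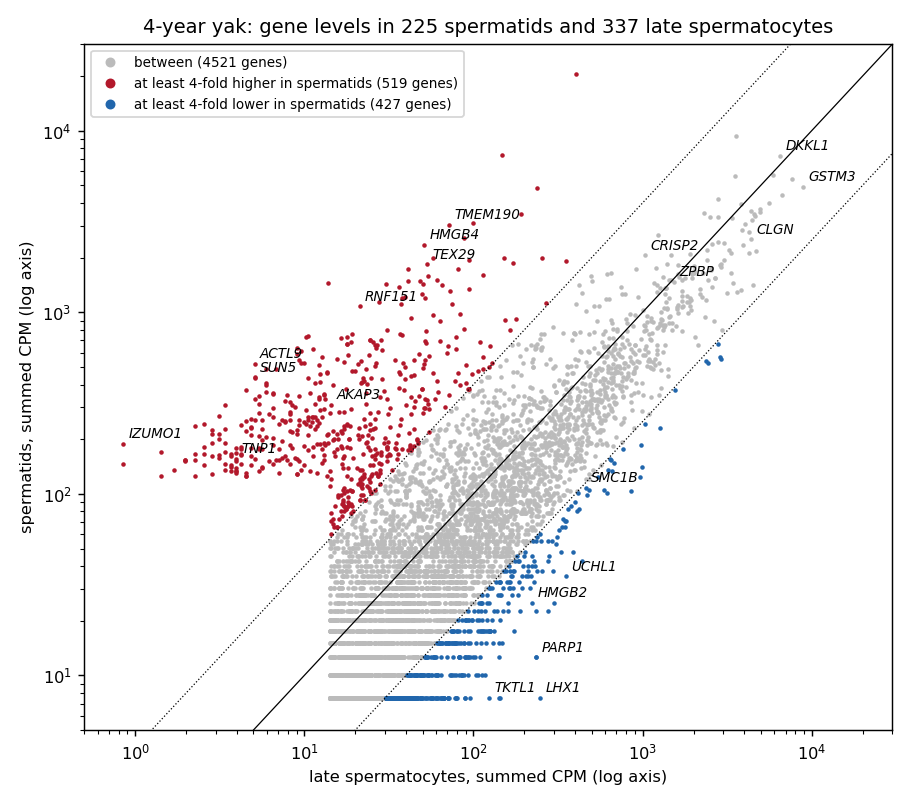
Summed CPM of 5467 genes in 225 spermatids (vertical) and 337 late spermatocytes (horizontal), both on log axes; the solid line is equality, dotted lines are 4-fold, and sums under 3 counts are drawn at 3 counts. The 519 genes in red lie at least 4-fold higher in spermatids, the 427 in blue at least 4-fold lower, and DKKL1, GSTM3 and CLGN lie between the dotted lines at the top.

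Among genes with at least 100 UMIs in spermatids, rule genes left out, the 12 symbol-bearing ones with the largest ratios included genes of the sperm head, the head-tail joint and late remodelling. ACTL9, an actin-like protein of the perinuclear theca, had 521 CPM (452–597) in spermatids, with a UMI in 100 cells, and 5.09 CPM in late spermatocytes, a log2 ratio of 6.68 (5.98–7.46). SUN5, which anchors the tail to the nucleus, had 435 CPM in 96 cells, against 5.09 CPM in late spermatocytes (log2 6.42, 5.71–7.20). ACTRT2, another actin-related gene, had 485 CPM in spermatids, against 6.79 CPM in late spermatocytes, and PRSS37, a protease-like protein needed for sperm migration in mice, had 732 CPM in spermatids, against 10.2 CPM in late spermatocytes. SPEM1, which in mice acts in removal of spermatid cytoplasm, had 410 CPM in spermatids (58 cells), against 5.94 CPM in late spermatocytes. TSSK1B, a testis-specific kinase, had 588 CPM in spermatids (96 cells), against 9.06 CPM in late spermatocytes. The other 6, with ratios from 64.1 (C10orf120) to 91.1 (TMEM270), were TMEM270, P3R3URF, C19orf71, SPATA3, C20orf141 and C10orf120. In endothelial cells these 12 genes had between 11.6 and 67.1 CPM, above their late spermatocyte levels in all 12.

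Acrosome genes held some at least 4-fold higher in spermatids and others within 4-fold of late spermatocytes. Of 14 compared genes, rule genes left out, 7 were higher, 0 lower and 7 between, with a median log2 ratio of 1.59, against -0.58 over all genes. The higher ones were ACTL9, CAPZA3, TMEM190, ACTL7A, CYLC1, LYZL4 and ACRBP. CAPZA3, a germ cell subunit of the actin capping protein, had 526 CPM in spermatids against 9.90 CPM in late spermatocytes. CYLC1, a cylicin of the perinuclear theca, had 173 CPM in spermatids, against 10.5 CPM in late spermatocytes, and ACRBP, the acrosin-binding protein, had 108 CPM in spermatids, against 24.1 CPM in late spermatocytes. ZPBP, a zona pellucida-binding protein, stood at 1476 CPM (1359–1601) in spermatids and 1525 CPM in late spermatocytes, a log2 ratio of -0.05 (-0.17–0.08). CRISP2 stood at 2062 CPM in spermatids and 1029 CPM in late spermatocytes.

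Of 10 compared genes of sperm-egg fusion and of the sperm surface, 5 were higher, 0 lower and 5 between, with a median log2 ratio of 3.05. IZUMO1, the sperm protein that binds the egg receptor, had 189 CPM in spermatids (75 UMIs in 56 cells) and 3 UMIs (0.849 CPM) in late spermatocytes, a log2 ratio of 7.80 (6.19–10.11). IZUMO2, a relative, had 1202 CPM (1097–1315) in spermatids (159 cells), against 37.6 CPM in late spermatocytes. IZUMO4, another relative, ran the other way, with 1645 CPM in spermatids and 3321 CPM in late spermatocytes. PDILT and PRSS55, which in mice act with PRSS37 on the maturation of a sperm surface protein, had 226 and 299 CPM in spermatids and 5.66 and 8.77 CPM in late spermatocytes. The chaperone CLGN of that route stood at 2528 CPM in spermatids and 4369 CPM in late spermatocytes.

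Chromatin genes had 4 of 9 compared members higher, 1 lower and 4 between, with a median log2 ratio of 0.34. HMGB4 had 2349 CPM (2201–2505) in spermatids and 50.9 CPM in late spermatocytes, a ratio of 46.1 (39.3–54.4). HMGB2, a member of the same family, was the lower one, with 25.1 CPM in spermatids, against 222 CPM in late spermatocytes, a log2 ratio of -3.14. Its spermatid level was under the 101 CPM of endothelial cells. CHD5, which in mice takes part in the exchange of histones for protamines, had 282 CPM in spermatids, against 16.1 CPM in late spermatocytes, and CDYL, a chromodomain protein, had 191 CPM in spermatids, against 34.8 CPM in late spermatocytes. TNP1 had 156 CPM from 62 UMIs in spermatids, against 3.96 CPM in late spermatocytes, a ratio of 39.4. BRDT, a bromodomain protein of male germ cells, lay between, with 186 CPM in spermatids and 283 CPM in late spermatocytes.

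Flagellar genes were the list with the most members between the limits: of 30 compared, 6 were higher, 0 lower and 24 between, with a median log2 ratio of 0.35. ODF1, of the outer dense fibres, had 138 CPM in spermatids and 5.66 CPM in late spermatocytes, and AKAP3, of the fibrous sheath, had 309 CPM in spermatids and 14.4 CPM in late spermatocytes. The other 4, CFAP69, TCP11, TSGA10 and TEKT3, had log2 ratios from 2.01 to 2.38, close to the 4-fold limit. TEKT2 and TEKT1, tektins of the axoneme, had 1109 and 762 CPM in spermatids and 405 and 252 CPM in late spermatocytes. ODF2 had 777 CPM in spermatids, against 429 CPM in late spermatocytes.

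Of 17 compared genes of the manchette, head shaping and the head-tail joint, 7 were higher, 1 lower and 9 between, with a median log2 ratio of 1.09. The higher ones were SUN5, SPEM1, SPAG4, SPATA46, ACTL7B, SPATC1L and SPATA6. SPATA6, needed in mice for the connecting piece, had 1924 CPM (1790–2065) in spermatids and 354 CPM in late spermatocytes. SPAG4, a SUN-domain protein of the nuclear envelope, had 226 CPM in spermatids, against 11.6 CPM in late spermatocytes. The lower one was IFT20, a carrier of intraflagellar transport, with 72.9 CPM in spermatids, against 338 CPM in late spermatocytes. In the list of ion channels and transport, 1 of 8 was higher, 1 lower and 6 between. EFCAB9, a calcium sensor of the sperm calcium channel, had 427 CPM in spermatids and 28.9 CPM in late spermatocytes, while SLC9C1, a sperm sodium-proton exchanger, had 32.7 CPM in spermatids, against 141 CPM in late spermatocytes.

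Sperm energy metabolism had 4 of 14 genes higher, 1 lower and 9 between, with a median log2 ratio of 0.45. GAPDHS, the sperm form of a glycolytic dehydrogenase, had 292 CPM (241–350) in spermatids and 19.0 CPM in late spermatocytes. HK1, a hexokinase, had 339 CPM in spermatids, 28.0 CPM in late spermatocytes and 125 CPM in endothelial cells. GOT1L1 and ENO4 were the other higher genes, and ACYP1, an acylphosphatase, was the lower one, with 12.6 CPM in spermatids, against 110 CPM in late spermatocytes. PDHA2, the germ cell form of a pyruvate dehydrogenase subunit, had 762 CPM in spermatids and 398 CPM in late spermatocytes, within 4-fold.

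The list of kinases and phosphatases had 2 of 12 genes higher (TSSK1B and TSSK4), 2 lower (STK31 and PKDREJ) and 8 between. PKDREJ is a receptor-like protein of the polycystin family and neither a kinase nor a phosphatase. The list's median log2 ratio of -1.31 lay under the -0.58 of all genes. TSSK4 had 410 CPM in spermatids and 21.5 CPM in late spermatocytes, while the phosphatase subunit PPP1CC had 1097 CPM in spermatids and 1615 CPM in late spermatocytes. Transcription factors of spermiogenesis had 1 of 9 higher, 1 lower and 7 between. FHL5, a coactivator in the male germ line, had 133 CPM in spermatids (32 cells), against 3.68 CPM in late spermatocytes, and TCFL5, a germ cell factor of the helix-loop-helix family, had 101 CPM in spermatids, against 415 CPM in late spermatocytes.

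Genes of RNA storage and of the piRNA path had 1 of 18 higher, 3 lower and 14 between. Their median log2 ratio of -0.77 was close to the -0.58 of all genes, of which 7.81% were lower. YBX3 and YBX2, which bind stored messages, had 1786 and 1039 CPM in spermatids and 2911 and 1390 CPM in late spermatocytes. DDX25, a testicular RNA helicase, had 1222 CPM in spermatids, against 1703 CPM in late spermatocytes. The lower ones were the piRNA genes TDRD1 (2 UMIs, 5.03 CPM in spermatids, against 94.8 CPM in late spermatocytes), PIWIL1 (20.1 CPM in spermatids, against 129 CPM in late spermatocytes) and TDRD5 (37.7 CPM in spermatids, against 173 CPM in late spermatocytes). The higher one was CPEB2, a regulator of translation, with 136 CPM in spermatids, against 32.8 CPM in late spermatocytes.

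Meiotic genes were lower or between, beside 9.49% of all genes higher and 7.81% lower. Of 15 compared genes of meiotic prophase, 0 were higher, 6 lower and 9 between, with a median log2 ratio of -1.31. The lower ones were MEIOB, HORMAD2, TEX11, SMC1B, MLH3 and TEX12. HORMAD2, of the unpaired chromosome axis, had 52.8 CPM in spermatids and 307 CPM in late spermatocytes, and SMC1B, a meiotic cohesin, had 108 CPM in spermatids and 460 CPM in late spermatocytes. MND1, which aids strand exchange, stood at 609 CPM in spermatids and 625 CPM in late spermatocytes (log2 -0.04, -0.23–0.15). SYCE1, of the synaptonemal complex, stood at 375 CPM in spermatids and 561 CPM in late spermatocytes. Of 8 genes of the meiotic divisions, 0 were higher, 1 was lower (the spindle protein TPX2, with 12.6 CPM in spermatids, against 99.0 CPM in late spermatocytes) and 7 lay between. With 1 call of 8, the divisions list is not set apart from the 7.81% of all genes. Spermatogonial genes had 3 compared members, all lower. UCHL1, a ubiquitin hydrolase of early germ cells, had 35.2 CPM in spermatids, against 353 CPM in late spermatocytes and 170 CPM in endothelial cells. DMRT1, a factor of spermatogonia, had 0 UMIs in spermatids and 39.1 CPM in late spermatocytes, 5.18-fold lower with its spermatid sum set to 3 counts. TKTL1 had 1 UMI in spermatids and 123 CPM in late spermatocytes. NANOS3, listed as an early germ cell gene, had 49 UMIs in 41 spermatids (123 CPM, 91.2–163) and 37 UMIs (10.5 CPM) in late spermatocytes. It lay 1 UMI under the filter of 50 and was not among the genes compared.

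Of 16 genes of ubiquitin and proteolysis, 5 were higher, 0 lower and 11 between, with a median log2 ratio of 0.33. RNF151, a ring-finger protein linked to the acrosome in mice, had 1076 CPM (977–1183) in 145 cells, against 21.2 CPM in late spermatocytes. KLHL10, a spermatid adaptor of a ubiquitin ligase, had 470 CPM in spermatids, against 13.6 CPM in late spermatocytes, and UBE2B, a ubiquitin-conjugating enzyme, had 327 CPM in spermatids, against 52.9 CPM in late spermatocytes. UBE2J1 and FBXO39 were the others. The list of SPATA and TEX genes, named for their testis expression, had 13 of 18 higher, 0 lower and 5 between, with a median log2 ratio of 4.17. TEX29, at 1843 CPM in spermatids (195 cells), against 52.9 CPM in late spermatocytes, and TEX33, at 1112 CPM in spermatids, against 74.4 CPM in late spermatocytes, led it by level. That list, like the others, was drawn up with results of these data known, and its share is to be read beside the 9.49% of all genes.

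**Figure D3:**
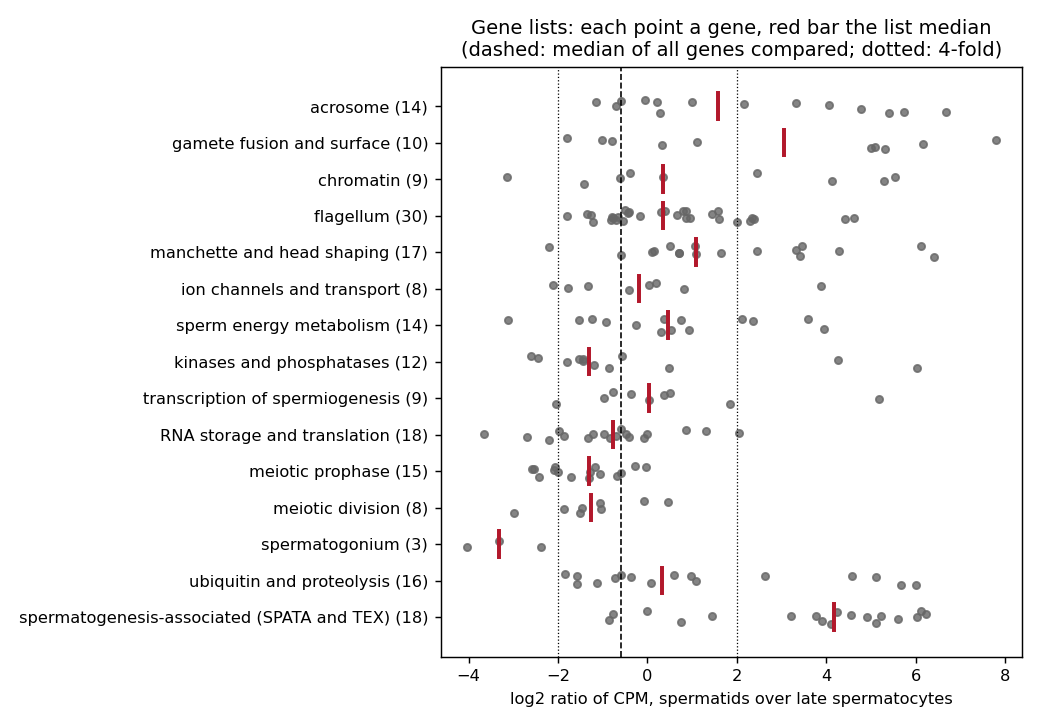
Log2 ratio of CPM, spermatids over late spermatocytes (horizontal), for the compared genes of 15 lists with the number of genes in brackets; points are genes, red bars list medians, the dashed line the median of all genes (-0.58) and dotted lines 4-fold. The SPATA and TEX list has its median at 4.17 and the fusion list at 3.05, while prophase (-1.31) and spermatogonial genes (-3.33) lie to the left.

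The genes with the smallest ratios, with at least 100 UMIs in late spermatocytes, were of other kinds. LHX1, a LIM homeobox transcription factor, had 3 UMIs in spermatids (7.54 CPM) and 874 UMIs (247 CPM) in late spermatocytes, a log2 ratio of -5.03 (-7.32 to -3.48). It was at 1 UMI in 38 early spermatocytes described below and at 17.9 CPM in endothelial cells, so that among these groups late spermatocytes held most of it. PARP1, a DNA damage sensor, had 5 UMIs (12.6 CPM) in spermatids, against 235 CPM in late spermatocytes and 145 CPM in endothelial cells. GCC2, a golgin, had 3 UMIs in spermatids and 144 CPM in late spermatocytes, and DDX27, an RNA helicase, 2 UMIs in spermatids and 141 CPM in late spermatocytes. IL12A, a cytokine subunit, had 22.6 CPM in spermatids, against 275 CPM in late spermatocytes. The others of these 12 were TKTL1, TDRD1, RDX, ATP6V1B2, PLIN3, EFCAB5 and UTP18, with 1 to 5 UMIs each in spermatids. With 397623 UMIs in spermatids, 82 of the 427 lower genes had under 3 UMIs there, and their ratios were computed with 3 UMIs in its place.

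The absence of DMC1, a recombinase of early meiosis, is a condition of the rule, and it removed 150 barcodes that met every other condition. Of these, 148 had DMC1, with 287 UMIs in all, 94 barcodes having a single UMI of it, and 3 had SPO11, with 3 UMIs. Their median depth was 3182 UMIs, against 1407 in the members. Among the 375 barcodes before this limit, a DMC1 UMI was found in 10.8% (5.08–19.6) of 83 barcodes under 1000 UMIs and in 30.1% (22.1–39.0) of 123 from 1000 to 2000. From 2000 to 4000 UMIs it was found in 43.8% (33.6–54.3) of 96, and at 4000 or more in 82.2% (71.5–90.2) of 73. The DMC1 level in these classes was 147, 252, 204 and 261 CPM, so the share with a UMI went up with depth far more than the level did. Over the 375 it was 241 CPM (214–271), against 30.2 CPM (25.5–35.5) in 542 barcodes with at least 3 UMIs of synaptonemal and recombination genes and without the acrosome criterion, and 17.9 CPM (10.9–27.6) in endothelial cells. The 542 had no limit on CCNA1 and AURKA and held 246 CPM of CCNA1, so late spermatocytes, which lack DMC1 by choice, could be among them. The 38 early spermatocytes described below, chosen by DMC1 and SPO11, had 319 CPM (259–390) of DMC1. SPO11, which makes the breaks of meiosis, had 3 UMIs over the 375 (2.52 CPM, 0.520–7.37) and 9.58 CPM (7.01–12.8) in the 542.

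Barcodes left out for DMC1 or SPO11 differed from the members at 4-fold in few genes. Of 2495 compared, 7 were higher in the left-out barcodes (0.281%) and 5 lower (0.2%). DMC1 is 1 of the 7, and its difference was set by the rule. The higher ones with a symbol were DMC1, SYCP3, ZCWPW1, PHKB and GML, chosen here after their values were seen. SYCP3, of the chromosome axis, had 72 UMIs (90.8 CPM) in the left-out barcodes and 2 UMIs (5.03 CPM) in the members. ZCWPW1, a histone reader of meiosis, had 55 UMIs (69.4 CPM) in the left-out barcodes and 1 UMI (2.51 CPM) in the members. The lower ones were ISG15, CCL5, RAMP2, IGFBP7 and a feature without a symbol. ISG15, an interferon-response gene, had 8.83 CPM in the left-out barcodes and 135.8 CPM in the members. HMGB4 stood at 3514 CPM in the left-out barcodes and 2349 CPM in the members, TMEM190 at 3622 CPM in the left-out barcodes and 3041 CPM in the members. TNP1 was found in 17.0% (11.2–24.3) of the thinned left-out barcodes, against 9.93% of members.

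The limit therefore bears on every count above. Without it the population had 375 cells, 995 of 5924 genes were at least 4-fold higher than in late spermatocytes and 838 at least 4-fold lower, against 519 and 427 of 5467 with it. Barcodes left out for DMC1 or SPO11, set alone against late spermatocytes, had 867 (15.1%) of 5755 genes higher and 1054 (18.3%) lower. Rule genes are included in all of these counts. The left-out barcodes held 792588 UMIs in all, against 397623 in the members, and the part of this in the counts was not tested. The 49 genes checked were past 4-fold in the members, and all were also past it over the 375. They are the markers and the genes named by level, by ratio or as the highest of a list, rule genes left out. List members named beyond these, such as TNP1, IZUMO1, CFAP69, TCP11, TSGA10 and TEKT3, were not checked.

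Early spermatocytes gave a second comparison. By the first definition, at least 2 UMIs of DMC1 and SPO11, there were 92, of which 54 met the acrosome criterion, so the 38 without it were used, a choice made after the data were seen. Of 2131 genes, 555 (26%) were at least 4-fold higher in spermatids and 454 (21.3%) at least 4-fold lower. These counts include genes that chose the cells, with ACRV1, SPACA1 and SPACA4 among the higher ones and DMC1 among the lower ones. DKKL1 had 7268 CPM in spermatids and 1074 CPM in the 38, while GSTM3 had 4909 CPM in spermatids and 1087 CPM in the 38. CLGN had 2528 CPM in spermatids and 436 CPM in the 38, so these genes, within 4-fold of late spermatocytes, were over 4-fold above early spermatocytes. The cohesin SMC1B had 108 CPM in spermatids and 1211 CPM in the 38, and SYCP1, of the synaptonemal complex, 75.4 CPM in spermatids and 728 CPM in the 38. Of the 38, 6 had at least 10% of their UMIs on the 516 higher genes, as most spermatids did, and HMGB4 at 688 CPM in the 38 was above the 211 CPM of endothelial cells.

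The share of a barcode's UMIs on the 516 higher genes shows how far the members are alike. It was 22.3% at the median in spermatids (lowest 1.35%, highest 62.1%), and 24 of 225 members lay under 10%. Barcodes left out for DMC1 or SPO11 had a median of 28.5% and those left out for CCNA1 and AURKA 4.78%. Late spermatocytes had a median of 1.37%, the 38 early spermatocytes 1.68% and endothelial cells 1.98%. Members just inside the acrosome threshold had 21.3% and barcodes just outside it 9.89%, of which 35 of 69 lay under 10%. Since the 516 genes were picked from the members' own sums, these shares describe the spread and are no test.

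**Figure D4:**
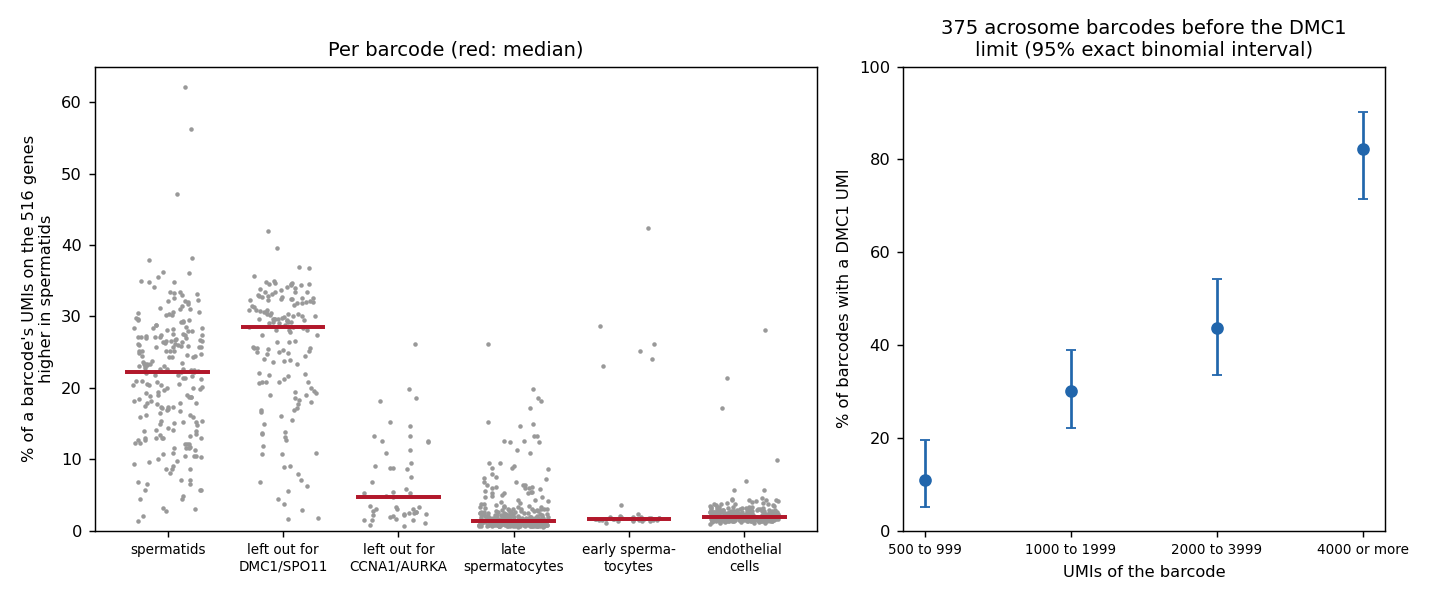
Left, the percent of each barcode's UMIs on the 516 genes higher in spermatids, by population, with medians in red: 22.3% in spermatids, 28.5% in barcodes left out for DMC1 or SPO11 and at most 4.78% in the others. Right, the percent of 375 acrosome barcodes with a DMC1 UMI by depth class, with 95% exact binomial intervals, from 10.8% under 1000 UMIs to 82.2% at 4000 or more.

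When the members were ordered by that share and cut into 3 classes of 75, TNP1 and other late spermatid genes stood highest in the high class, and CLGN and ZPBP in the low class. The classes are ranges of a score (1.35% to 17.4%, 17.4% to 25.9% and 25.9% to 62.1%), with 72 members within 2 points of a cut, and not cell types. Class members were not identical for every gene: the class totals of HMGB4, CLGN, DKKL1 and ACRV1, among others, differ from those of TNP1. The ranges above are those of 1 ordering and need not be the cuts behind the values of each gene. TNP1 had 22.6, 76.7 and 318 CPM in the low, middle and high class, from 3, 8 and 51 UMIs in 3, 8 and 22 cells. SPEM1 had 30.1, 134 and 904 CPM, FHL5 15.0, 57.5 and 281 CPM, and HMGB4 722, 1774 and 4122 CPM. These went up from class to class with the score. As means over cells, the high class had 210 CPM of TNP1, 685 of SPEM1, 291 of FHL5 and 3581 of HMGB4, with the order of the classes kept. A single cell held up to 42 UMIs of SPEM1 and 104 of HMGB4.

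AKAP3 had 105, 249 and 518 CPM in the low, middle and high class, and ODF1 37.6, 95.9 and 249 CPM. All of these are among the 516 genes, which were picked from the members' own sums, so that their order is no test. Genes outside the 516 were not picked in that way, but a higher score leaves a smaller share for them, so their order is no test either. CLGN had 3710, 2526 and 1540 CPM, and ZPBP 1948, 1592 and 1010 CPM. SYCP1 had 14, 13 and 3 UMIs, and CALM3 was at 5760, 5878 and 4852 CPM. DKKL1 ran the other way, with 6553, 7107 and 7989 CPM. ACRV1, a rule gene, stood at 1605, 2259 and 2007 CPM.

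Other measures moved with the classes. Median mitochondrial shares were 3.07%, 0.715% and 0.431% in the low, middle and high class, median depths 1459, 1235 and 1701 UMIs, and members with 1 UMI of CCNA1 or AURKA 33, 16 and 12. Since shares sum to 100%, UMIs on the 516 genes leave fewer for the rest, and the part of each of these in the order of genes was not tested.

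**Figure D5:**
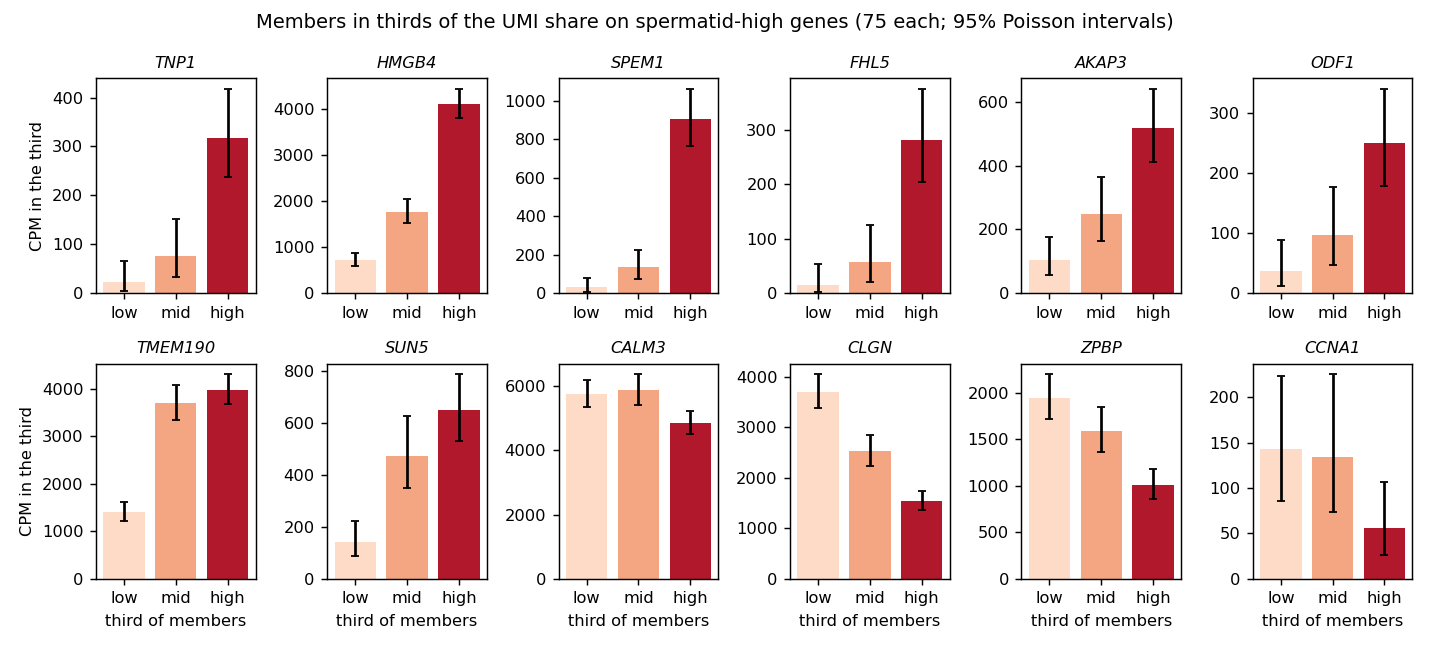
CPM of 12 genes in members ordered by the share of UMIs on the 516 higher genes and cut into classes of 75 (low, mid, high); bars start at 0 and error bars are 95% Poisson intervals. TNP1, SPEM1 and HMGB4 stand highest in the high class (318, 904 and 4122 CPM), while CLGN and ZPBP stand highest in the low class (3710 and 1948 CPM). Class members differ in part between genes.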

How the data were processed

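The deposited matrices held raw counts of UMIs per gene and barcode, made by the authors in Cell Ranger, without normalisation. Per the file headers this was version 5.0.0, while the submitters' processing notes name 2.1.1. The build of the genome was not given in the sources used here. Of 26961 feature identifiers 0 matched the reference table, and 15709 features carried a symbol in the files. Kept barcodes had 300 or more genes and a mitochondrial share of at most 20%, which left 4800 in the 4-year library, with 14385989 UMIs. At most 1 barcode of a member also occurred in any 1 other library. Doublets were not removed in the main result, since the threshold of Scrublet marked 0 barcodes. Removal by rank (0.8% per 1000 barcodes, expected rate 0.06) would take 306 barcodes, 16 of them members.

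Counts were summed over the cells of a population and scaled to counts per 1000000 UMIs (CPM). A gene was called at 4-fold or more, with at least 50 UMIs in either sum and sums under 3 set to 3. Poisson intervals are given for levels, exact binomial ones for shares and exact conditional ones for ratios. Thinning used 1000 UMIs per cell. Endothelial cells were 306 barcodes with at least 2 UMIs of PECAM1 and CDH5. Named genes were the markers and rule genes, the 15 highest by level, the 12 largest and 12 smallest ratios with at least 100 UMIs in the higher population, and from each list the 4 highest by level; list members named beyond these were chosen after their values were seen, to say which were past 4-fold. One of the genes that this rule names is not reported here. The members and the 15 lists were chosen with earlier results of these data known. The groups left out by 1 limit, the 542 prophase barcodes, the 38 early spermatocytes and the 3 classes of members were added after the data were seen. Scripts (Python 3.11.15, numpy 2.4.6, scipy 1.17.1, scanpy 1.11.5) were tested on simulated data.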

Additional observations from a re-analysis of the deposited data

How the results depend on the processing

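The number of spermatids was 194 with at least 500 genes per barcode, 294 with at least 2 acrosome UMIs, 128 with at least 5, and 375 without the DMC1 and SPO11 limit. It was 208 and 230 with mitochondrial limits of 10% and 40%, and 209 with doublets removed by rank. These counts lie inside the exact binomial interval of the 225, which does not measure the effect of a filter. Genes at least 4-fold higher numbered 519, and 160 (of 1337 compared) with cells thinned to 1000 UMIs, 2825 (of 15487) with no filter beyond 1 UMI, 119 (of 2649) with at least 200 UMIs in either population and 995 without the DMC1 and SPO11 limit. Genes at least 4-fold lower numbered 427, and 203 with at least 2 acrosome UMIs, 83 with thinned cells, 275 with at least 200 UMIs and 838 without the DMC1 and SPO11 limit. Thinning and the filters change how many genes are compared; for the acrosome threshold and the DMC1 limit the cause was not tested. Calls were 72.3% higher with at least 2 acrosome UMIs, 65.8% with thinned cells, 30.2% at 200 UMIs and 86.9% with no filter, against 54.9%. Of 49 named genes past 4-fold, 42 were still past it with at least 2 acrosome UMIs, 44 with thinned cells, 47 without the 5 deepest members, 47 with cells weighted equally and 48 without doublets, and 49 in each other setting tried on them, and 0 changed direction. The settings without the DMC1 and SPO11 limit, without the 5 deepest members and with equal weights were chosen after seeing the data. Leaving out a replicate was not possible, since 1 library held the spermatids. No paired analysis was possible because all comparisons lie within that library. With 397623 UMIs, 1 UMI stands for 2.51 CPM and the floor of 3 counts used in ratios for 7.54 CPM in spermatids, so a gene with no UMI there is at most known to lie under that floor.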
